A study of Mus musculus with 11 samples.

Results

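The genes described here encode caspases and the proteins that switch them on or hold them back: Casp1, Casp2, Casp6, Casp8, Casp9, Apaf1, Diablo and Xiap. These 8 genes, of 37583 in the deposited counts, were chosen by name, and all 8 were found by their mouse symbols and passed the filter on low counts with which 11900 genes were tested. The RNA came from 11 mouse lines of granulocyte-monocyte progenitors (GMPs), from which neutrophils and monocytes form. The lines were derived from C57BL/6 fetal liver at embryonic day 15.5, and 6 were wild type (WT) and 5 carried a knockout of Taz (KO), the gene of tafazzin, a mitochondrial enzyme that remodels the lipid cardiolipin. All 11 lines, controls included, carried retroviral ER-Hoxb8, which keeps progenitors immature and dividing while estradiol is present, and all grew in 0.5 uM beta-estradiol with stem cell factor at the equivalent of about 50 ng/ml. Each line came from a single cell, so a clone is the unit of replication. In the titles WT clones are numbered 1 or 2 and KO clones 3 or 4, and no label says what these numbers stand for. Clones that share a number may share a parent culture, and p-values then measure only the spread between these clones.

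Caspases are proteases made as inactive precursors that cut other proteins after aspartate residues. In the mitochondrial route of apoptosis, cytochrome c leaves the space between the mitochondrial membranes and binds APAF1, which assembles into the apoptosome and activates caspase-9. XIAP inhibits caspases, and DIABLO, also released from mitochondria, takes that block away. Caspase-8 starts the death receptor route, caspase-2 is activated on a platform called the PIDDosome, caspase-6 acts further down, and caspase-1 belongs to the inflammasome, where it matures interleukins and cleaves gasdermin D. Cardiolipin is the lipid to which cytochrome c is bound in the inner membrane.

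Gene counts totalled between 21966954 and 27431544 in WT and between 19778119 and 23658158 in KO clones. Values are given as counts scaled to library size (CPM), on library sizes scaled by edgeR's TMM method. Taz stood between 36.98 and 43.8 CPM in WT and between 2.21 and 4.09 CPM in KO clones, so every library matched its label. The 9 GMP markers summed to between 12760 and 22620 CPM per clone, of which Mpo made up the most. Kit, Cd34, Fcgr3, Ctsg, Myb and Cebpa stood at 85.03 CPM or more in every clone, while the granule protease genes Elane (2.26 CPM in KO 4K to 825.3 CPM in WT 2D) and Prtn3 (298.2 to 2419 CPM in the same clones) varied widely. Clone WT 2D stood apart in the 11 late neutrophil markers, which summed to 1534 CPM there and to between 15.95 and 145.3 CPM in the other 10 clones. The 6 B cell markers summed to between 30.85 and 50.63 CPM in WT and between 5.02 and 27.89 CPM in KO clones, with no overlap, and the part of either marker list in the genotype values below was not tested except where stated.

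None of the 8 genes was called between KO and WT clones at an adjusted p under 0.05 in edgeR's quasi-likelihood test. Over all tested genes 5.05% were called. At an unadjusted p under 0.05 there were 3 of the 8 (Casp6, Casp9 and Diablo), against 20.3% of all tested genes. Casp6 and Casp9 were the 2 of them lower in KO clones, against 10.3% of all tested genes. The genotypes overlapped in all 8 genes, while 5.99% of all tested genes had no overlap (2.97% higher and 3.02% lower in KO clones). Limma-voom, which called 5.15% of all tested genes, also called 0 of the 8. DESeq2 called 2 of the 8, Casp6 and Casp9, both lower in KO clones, and it called 10.6% of all tested genes (5.38% higher and 5.22% lower). The median log2 fold change of the 8 genes, KO minus WT, was -0.05, beside -0.01 over all tested genes. Casp1 stood apart in its spread, since its mRNA was present in some clones of each genotype and near 0 in others.

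**Figure D1:**
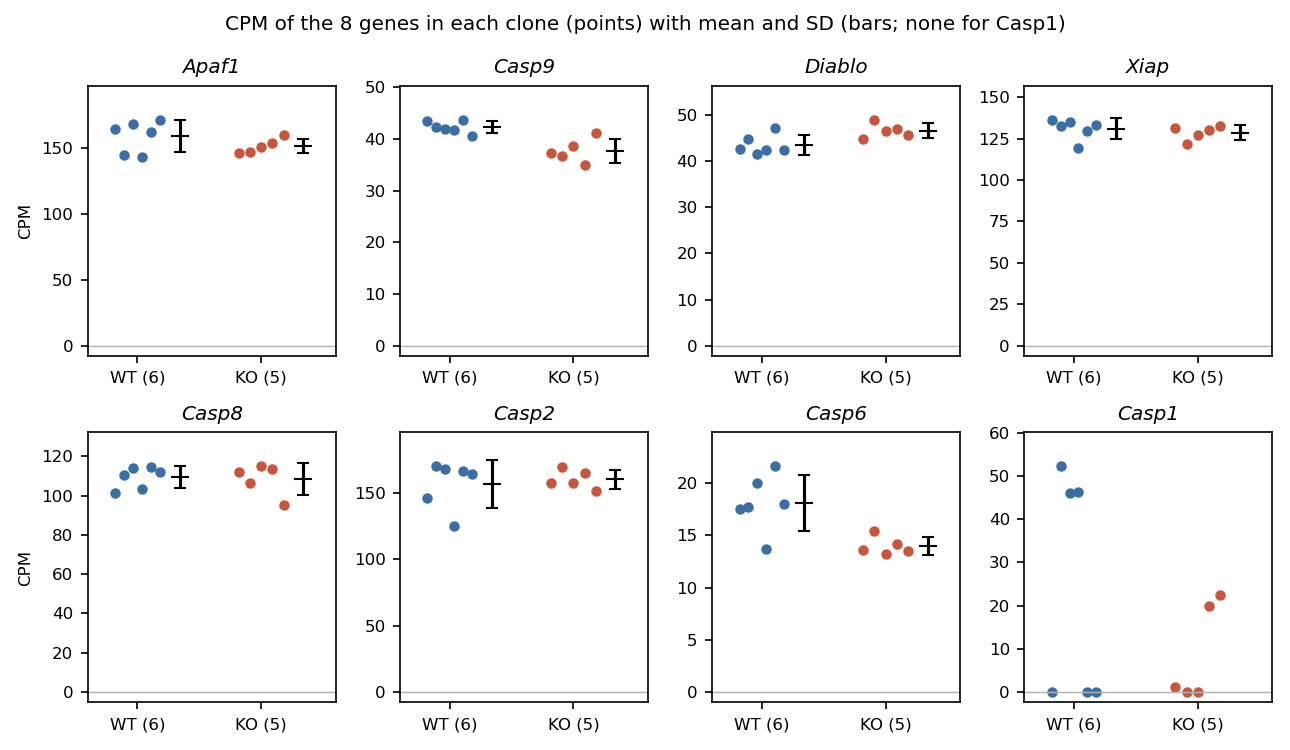
CPM of each of the 8 genes in the 6 WT clones (blue) and 5 KO clones (red), on axes that hold 0, with the mean and SD of each genotype as black bars except for Casp1. The genotypes overlap in every panel, and the Casp1 points split between values of at most 1.27 CPM and values from 19.9 to 52.2 CPM.

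Apaf1, the scaffold of the apoptosome (chromosome 10), lay between 143.2 and 171.7 CPM in WT clones, with a median of 163.3 CPM. KO 3H and 3I had 146.8 and 146.9 CPM, and KO 4J, 4K and 4L had 151.4, 154.0 and 159.9 CPM. Every KO value fell inside the WT range. Apaf1 differed by -0.07 ± 0.05 on the log2 scale (SE; edgeR adjusted p = 0.519), with a 95% interval from -0.19 to 0.05.

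Casp9, the initiator that the apoptosome activates (chromosome 4), had 43.48, 42.37 and 42.02 CPM in WT 1A, 1B and 1C and 41.78, 43.73 and 40.52 CPM in WT 2D, 2E and 2F. It had 37.34 and 36.68 CPM in KO 3H and 3I and 38.76, 34.91 and 41.16 CPM in KO 4J, 4K and 4L. Of the KO clones 4 lay below every WT clone, and 4L lay inside the WT range. The KO mean was 89.3% of the WT mean (37.8 ± 2.35 CPM, SD, n = 5, against 42.3 ± 1.18 CPM, n = 6). The log2 fold change of -0.16 ± 0.05 (SE) missed the threshold in edgeR's test (adjusted p = 0.0681; 95% interval from -0.27 to -0.06). It passed in 3 of 26 alternative settings. These were without KO 4L, the KO clone inside the WT range (-0.20, adjusted p = 0.0411), in DESeq2 (0.0123) and with the title number as a random effect in limma-voom (0.00912). The random-effect fit had a negative consensus correlation (-0.215), and its SE for Casp9 was 0.034, against 0.0456 in plain limma-voom. It therefore made no allowance for clones of the same number being alike. Casp9 did not pass without KO 4K (0.1355), with title-number means (0.119) or with counts summed per title number (0.129). Counts of 735 to 1188 reads per clone lay behind these values.

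Diablo, whose protein relieves the block by XIAP (chromosome 5), lay between 41.56 and 47.37 CPM in WT clones with a median of 42.6 CPM. KO 3H and 3I had 44.91 and 49.04 CPM, and KO 4J, 4K and 4L had 46.71, 47.10 and 45.78 CPM. KO values sat in the upper part of the WT range, and 1 of them passed its top. On the log2 scale KO minus WT was 0.10 ± 0.04 (SE; edgeR adjusted p = 0.218; 95% interval from 0.01 to 0.19). Counting ignored strand and Diablo shares exon bases with 3 other annotated genes, so reads in those bases cannot be assigned with certainty.

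Xiap, the inhibitor (X chromosome), lay between 119.0 and 136.3 CPM in WT clones and between 121.6 and 132.6 CPM in KO clones. The KO range sat inside the WT range. Its log2 fold change was -0.03 ± 0.04 (SE; edgeR adjusted p = 0.779), with a 95% interval from -0.11 to 0.06.

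The balance of activators and inhibitors was also followed as a ratio of CPM within each clone, without dividing by gene length, so that only the genotypes can be compared. Casp9 per Xiap was 0.324 ± 0.0174 in WT (SD, n = 6) and 0.294 ± 0.0173 in KO clones (n = 5), a log2 difference of -0.14 (two-sided exact permutation test, p = 0.00866, adjusted p = 0.0260 over 3 ratios). WT clones ranged from 0.305 to 0.351 and KO clones from 0.268 to 0.311, so the ranges overlapped. The call was lost without KO 4K (-0.11, adjusted p = 0.0571). Casp9 alone had an unadjusted p of 0.00446 in edgeR's test and missed the threshold over all tested genes. The 3 ratios were adjusted only among themselves, were not set beside other gene pairs and were not refitted by title number.

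Diablo per Xiap was 0.334 ± 0.0240 in WT (SD, n = 6) and 0.364 ± 0.0244 in KO clones (n = 5; exact permutation test, p = 0.0714, adjusted p = 0.0714), which did not pass. Without WT 2E it passed (0.15, adjusted p = 0.0317).

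**Figure D2:**
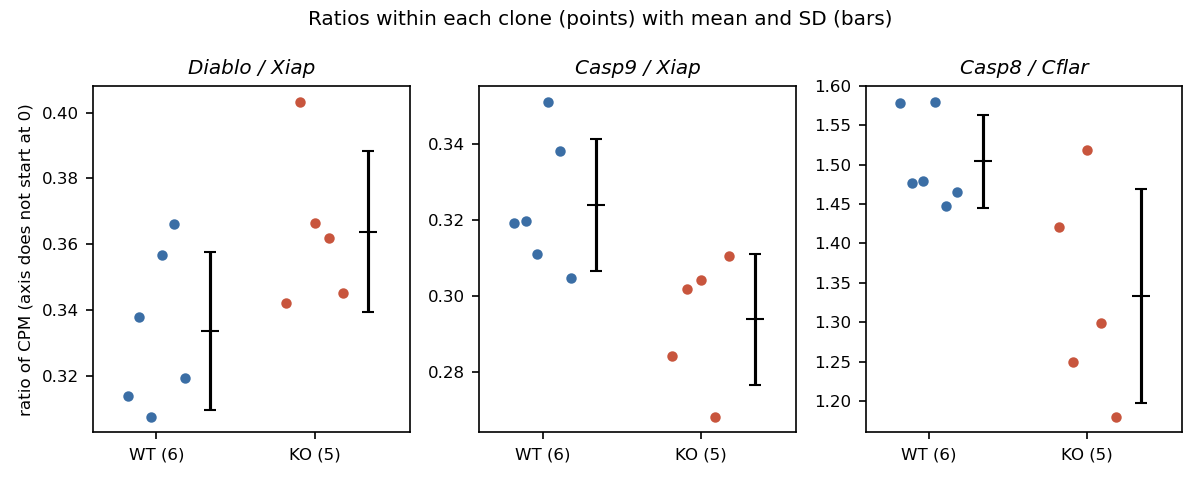
Ratios of CPM within each clone for Diablo to Xiap, Casp9 to Xiap and Casp8 to Cflar, in 6 WT clones (blue) and 5 KO clones (red), with mean and SD as black bars on axes that do not start at 0. The mean is higher in KO clones for Diablo to Xiap and lower for the other two, and the genotypes overlap in all 3 panels.

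Casp8, the initiator at death receptors (chromosome 1), ranged from 101.4 to 114.4 CPM in WT clones. KO 3H and 3I had 111.8 and 106.4 CPM, and KO 4J, 4K and 4L had 114.9, 113.7 and 95.22 CPM. KO 4L was the lowest clone of all and KO 4J the highest, so the KO values spanned the WT range. The log2 fold change was -0.01 ± 0.05 (SE; edgeR adjusted p = 0.927; 95% interval from -0.13 to 0.11). Its sign turned without KO 4L (0.03, adjusted p = 0.755).

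Cflar encodes c-FLIP, a relative of caspase-8 that can hold it back at death receptors. It had 72.9 ± 6.37 CPM in WT (SD, n = 6) and 81.5 ± 4.82 CPM in KO clones (n = 5), 0.16 ± 0.07 higher on the log2 scale (SE), which did not pass (edgeR adjusted p = 0.189). The ratio of Casp8 to Cflar was 1.505 ± 0.0592 in WT and 1.334 ± 0.136 in KO clones (SD, n = 6 and 5; exact permutation test, p = 0.0238, adjusted p = 0.0357). It was lower in 4 of 5 KO clones than in any WT clone, and KO 4J, at 1.519, was not. The call was lost without WT 1A, 1B, 1C, 2D or 2F or without KO 3I, 4K or 4L (adjusted p from 0.0571 to 0.0952), and it remained without WT 2E, KO 3H or KO 4J.

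Casp2, the caspase of the PIDDosome (chromosome 6), lay between 124.6 and 169.8 CPM in WT clones, with a median of 165.4 CPM. KO clones lay between 151.0 and 169.1 CPM. WT 2D was the lowest clone and WT 1A, at 145.7 CPM, the next, while the other 9 clones held between 151.0 and 169.8 CPM. The log2 fold change was 0.03 ± 0.08 (SE; edgeR adjusted p = 0.863; 95% interval from -0.14 to 0.20), and its sign turned without WT 2D (-0.03, adjusted p = 0.808).

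Casp6, an effector caspase (chromosome 3), was the next after Casp1 in the size of its difference. WT 1A, 1B and 1C had 17.55, 17.71 and 20.01 CPM, and WT 2D, 2E and 2F had 13.65, 21.61 and 18.04 CPM. KO 3H and 3I had 13.61 and 15.45 CPM, and KO 4J, 4K and 4L had 13.17, 14.16 and 13.55 CPM. Of the WT clones 5 lay above every KO clone, and WT 2D lay among the KO values.

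The KO mean of Casp6 was 77.3% of the WT mean (14.0 ± 0.890 CPM, SD, n = 5, against 18.1 ± 2.69 CPM, n = 6). The log2 fold change of -0.37 ± 0.11 (SE) missed the threshold in edgeR's test (adjusted p = 0.0707; 95% interval from -0.60 to -0.14). It passed in 5 of 26 alternative settings. Without WT 2D, the clone with 1534 CPM of late neutrophil markers, it was -0.44 (adjusted p = 0.0105). In a fit that held the late neutrophil score as covariate it was -0.45 (adjusted p = 0.00247). WT 2D had the highest score (4.80, next KO 4L at 1.71) and was the only WT clone among the KO values. The other settings were without title number 2 (0.04935), DESeq2 (0.0200) and the title number as a random effect in limma-voom (0.0137). In the random-effect fit, with its negative consensus correlation (-0.215), the SE for Casp6 was 0.083, against 0.113 in plain limma-voom. Casp6 did not pass in limma-voom (0.0983), with title-number means (0.1385) or with counts summed per title number (0.09465). The range of counts was 268 to 587 reads per clone.

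Casp1, the inflammasome protease on chromosome 9, behaved unlike the others. WT clones 1B, 1C and 2D had 1435, 1012 and 1073 reads (52.19, 46.02 and 46.36 CPM), while WT 1A and 2E had 1 read each and WT 2F had 0. Among KO clones, 4K and 4L had 423 and 445 reads (19.90 and 22.34 CPM), 3H had 25 reads (1.27 CPM), and 3I and 4J had 0.

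Clones with ample Casp1 reads and clones with almost none occurred in both genotypes and under the title numbers 1, 2 and 4. A count of 0 allows up to 0.124 CPM in WT 2F and 0.127 CPM in KO 3I and 4J (3 counts per library, counting error only). Casp1 was at least 419-fold higher in WT 1B than in WT 2F and at least 156-fold higher in KO 4K than in KO 4J. Whether KO 3H held few cells with Casp1 mRNA or many with little of it cannot be told from RNA of whole cultures. Between genotypes the edgeR test gave an adjusted p of 0.702, and its interval for the log2 fold change ran from -5.45 to 2.51, so neither a large fall nor a large rise lies outside it.

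Marker levels are given beside these values, and their part in them was not tested. The 9 monocyte and macrophage markers summed to 853.5, 2298, 1992, 816.8, 2007 and 2077 CPM in the WT clones, in the order 1A to 2F. They summed to 1530, 1584, 1984, 1968 and 1139 CPM in the KO clones, in the order 3H to 4L. The 11 late neutrophil markers summed to 115.3, 74.3, 63.03, 1534, 22.05 and 47.82 CPM in WT and to 75.19, 29.63, 96.68, 15.95 and 145.3 CPM in KO clones. Clones with at least 423 Casp1 reads ranged from 15.95 to 1534 CPM in late neutrophil markers. Those with at most 25 Casp1 reads ranged from 22.05 to 115.3 CPM.

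**Figure D3:**
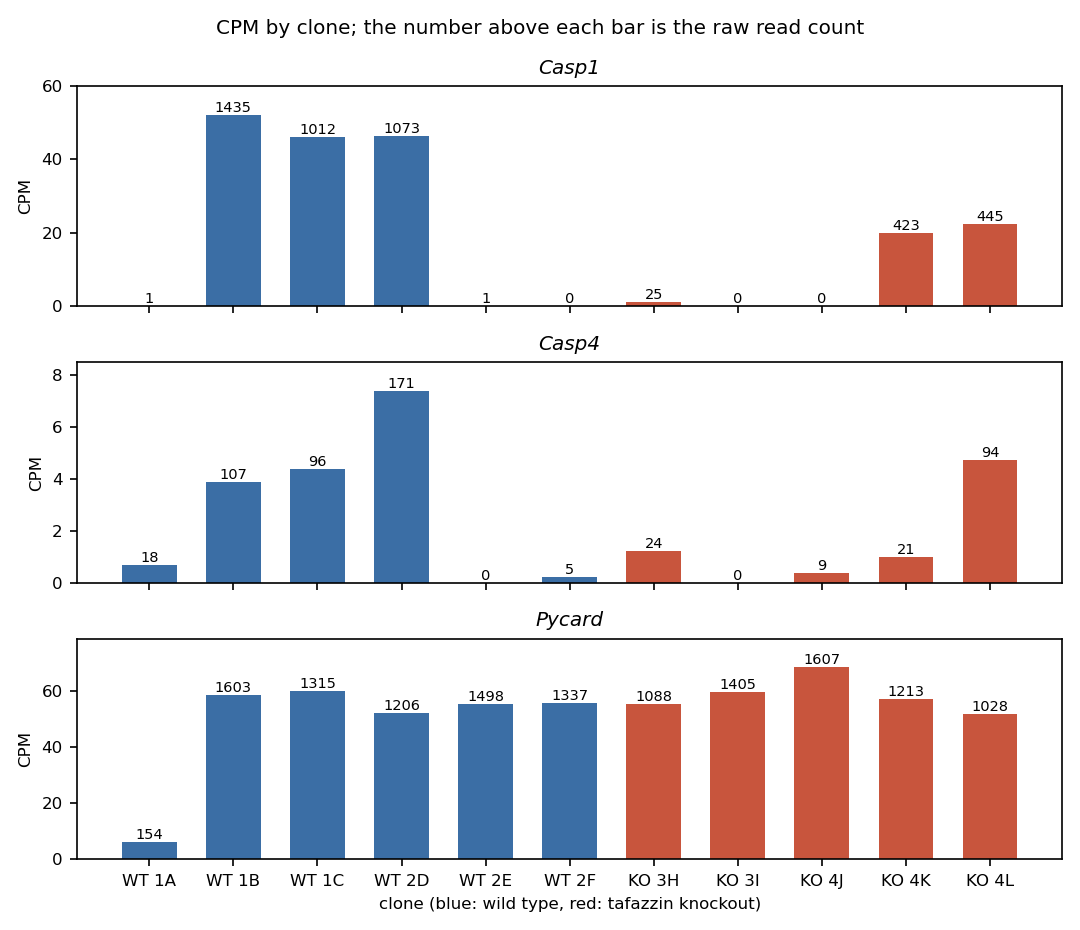
CPM (bars) and raw read counts (numbers above the bars) of Casp1, its neighbour Casp4 and the adaptor gene Pycard in each clone, blue for WT and red for KO. Casp1 is near 0 in WT 1A, 2E and 2F and KO 3H, 3I and 4J, Casp4 is highest in WT 2D at 171 reads, and Pycard is low only in WT 1A at 154 reads.

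Casp4, the next gene on the same strand, begins 1.6 kb after the end of Casp1 (GRCm38 gene order) and encodes the mouse inflammatory caspase also called caspase-11. It had 107, 96 and 171 reads in WT 1B, 1C and 2D and 94 reads in KO 4L. It had 18, 0 and 5 reads in WT 1A, 2E and 2F and 24, 0, 9 and 21 in KO 3H, 3I, 4J and 4K. KO 4K, with 423 reads of Casp1, was thus among the clones low in Casp4. Casp12, 38.2 kb beyond Casp1, had 0 reads in every clone and so could show no split. Msantd4, far off at -911.6 kb on the other side, had 904 to 1442 reads in every clone.

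Among the 11900 tested genes, Casp4 had the pattern nearest to that of Casp1, with a root mean square difference of 2.38 in centred log2 CPM over the 11 clones. The median over tested genes was 4.06, and the SD of Casp1 itself was 4.25. Outside the gene lists the nearest were Tlr6 (2.57), Flot2 (3.02) and Tmem109 (3.09), on chromosomes 5, 11 and 19. Tlr6, a Toll-like receptor gene, had 2.15, 3.55 and 2.07 CPM in WT 1B, 1C and 2D, 2.31 and 1.56 CPM in KO 4K and 4L, and at most 0.152 CPM elsewhere except in WT 1A (0.884 CPM). Flot2 and Tmem109 did not keep to the Casp1 split. Both were near 0 in KO 3I and 4J and high in KO 4K (31.43 and 16.09 CPM), but also high in KO 3H (23.88 and 11.33 CPM). Flot2 had 10.34 CPM in WT 2E and 2.66 CPM in WT 1B, and Tmem109 had 3.65 CPM in WT 1A and 2.33 CPM in WT 1B. The distances were ranked after choosing the most variable of the 8 genes, and they describe these 11 clones only.

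The promoter sequences are shown for Casp1 and Casp4, the neighbours that had no reads in some clones, and for Apaf1, which was even across clones. Apaf1 has the most CG dinucleotides of the 8 genes, and Diablo, Xiap and Casp9 varied less within genotypes. The sequences are the 250 bases before the RefSeq start (GRCm38), 5′ to 3′ on the strand of the gene, with each CG dinucleotide in capitals. The windows are chr9:5298267-5298516 (plus strand) for Casp1, chr9:5308599-5308848 (plus strand) for Casp4 and chr10:91082744-91082993 (minus strand) for Apaf1.
Casp1: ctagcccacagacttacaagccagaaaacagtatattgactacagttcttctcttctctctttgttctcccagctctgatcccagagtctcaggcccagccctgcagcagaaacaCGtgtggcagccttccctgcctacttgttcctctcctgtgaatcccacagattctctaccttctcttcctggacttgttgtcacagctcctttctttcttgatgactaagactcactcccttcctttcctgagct
Casp4: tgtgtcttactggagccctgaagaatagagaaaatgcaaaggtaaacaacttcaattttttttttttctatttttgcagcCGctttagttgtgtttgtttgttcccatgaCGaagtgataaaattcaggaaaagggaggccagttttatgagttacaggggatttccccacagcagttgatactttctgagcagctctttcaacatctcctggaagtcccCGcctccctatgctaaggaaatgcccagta
Apaf1: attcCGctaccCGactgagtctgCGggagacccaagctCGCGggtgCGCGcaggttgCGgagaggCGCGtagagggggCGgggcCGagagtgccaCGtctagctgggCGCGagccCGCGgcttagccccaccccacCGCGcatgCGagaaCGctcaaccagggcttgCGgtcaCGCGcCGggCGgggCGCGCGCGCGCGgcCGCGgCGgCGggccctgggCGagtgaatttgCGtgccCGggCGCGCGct
The Casp1 window holds 1 CG, and 3.46% of 11388 such windows of tested genes hold as few. The Casp4 window holds 3 CG (10.4% hold as few or fewer) and the Apaf1 window 42 (98.7%). CG reads the same on both strands, 98.8% of the windows hold at least 1, and the median is 16. All 8 genes had a promoter entry, and Casp8 (5 CG), Casp6 (11), Casp2 (17), Casp9 (25) and Diablo (30) lay between Casp1 and Apaf1. Of the genes outside the lists nearest to Casp1 in pattern, Tlr6, Flot2 and Tmem109 all had 0 reads in KO 4J. The windows of Flot2 and Tmem109 hold 13 and 20 CG (41.9% and 67.7% hold as few or fewer). Tlr6 has 2 starts with 4 and 6 CG (13.7% and 19.6%). Xiap has 3 RefSeq starts, with 13, 1 and 1 CG, and its mRNA was even across clones. The windows of Casp8 (from 58802252) and Xiap (from 42067586) lie inside the GENCODE spans of these genes. Those spans begin at 58795374 and 42059679, and starts further upstream were not examined. The window of Pycard, which was low only in WT 1A, holds 2 CG (6.73% hold as few or fewer).

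Per kilobase of exon, Casp8 was the most abundant of the 8 genes at 37.7 ± 2.23 CPM per kb (SD over 11 clones). Its lowest clone, at 32.9, lay above the highest of every other gene but Casp1. Casp2 followed at 22.4 ± 1.92 and Apaf1 at 17.3 ± 1.11 CPM per kb, and the ranges of this pair overlapped. Xiap came next at 13.7 ± 0.567 CPM per kb, with its highest clone below the lowest of Apaf1. Casp9 at 7.75 ± 0.562 and Diablo at 7.30 ± 0.397 CPM per kb overlapped, and Casp6 was lowest at 2.91 ± 0.523 CPM per kb. Casp1 ran from 0 to 34.9 CPM per kb, across nearly the whole of this order.

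Within genotypes, the SD of log2 CPM was 0.06 for Diablo, 0.06 for Xiap and 0.07 for Casp9, less than in most tested genes (median 0.15). The tested genes were not matched to these for abundance. It was 0.09 for Apaf1 and Casp8, 0.14 for Casp2 and 0.18 for Casp6. That of Casp1 was 4.46, larger than in nearly all tested genes. Between the title numbers, 0 of the 8 genes were called within WT (2 against 1) or within KO clones (4 against 3) in edgeR's test, with 0 at an unadjusted p under 0.05. Over all tested genes the share called was 0% in both contrasts.

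The wider machinery was followed in 59 further genes in 7 lists, of which 53 were tested. Of the 53, 1 was called higher and 3 lower in KO clones, among them Bid (higher) and Aifm1 and Parp1 (lower), beside 2.76% and 2.29% of all tested genes, and their median change was -0.02 (log2). The genotypes did not overlap in 5 of the 53, against 5.99% of all tested genes. These lists were drawn up with earlier results of these data known.

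**Figure D4:**
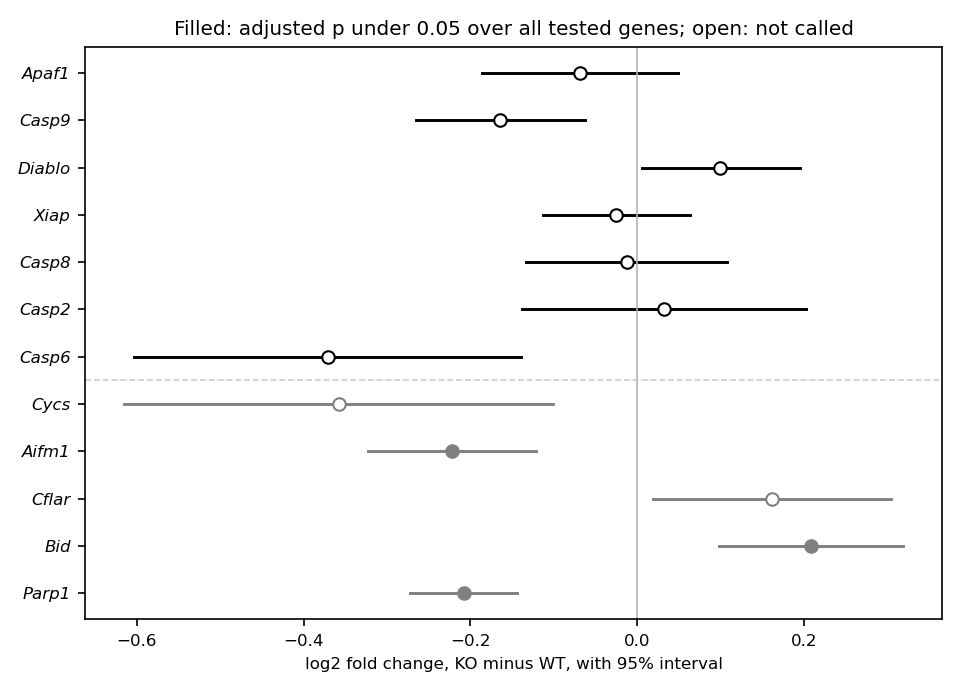
Log2 fold changes, KO minus WT, with 95% intervals, for 7 of the 8 genes (black; Casp1 is left out because its interval runs from -5.45 to 2.51) and 5 genes of the wider machinery (grey, under the dashed line). Filled points passed an adjusted p of 0.05 over all tested genes: Aifm1, Bid and Parp1.

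Among apoptosome partners and proteins released from mitochondria, 1 of 6 genes fell and none rose, beside 2.29% lower and 2.76% higher of all tested genes. Aifm1, whose product is a mitochondrial flavoprotein that takes part in caspase-independent death once released, had 126.3, 124.8, 134.5, 135.8, 127.8 and 136.3 CPM in WT clones 1A to 2F. It had 120.7, 108.4, 115.1, 102.4 and 114.6 CPM in KO clones 3H to 4L. The genotypes did not overlap (log2 fold change -0.22 ± 0.05, SE; edgeR adjusted p = 0.0228), and the call was lost without WT 1C (adjusted p = 0.0522) or KO 3I (0.0727). It was also lost without all clones of any 1 title number (adjusted p from 0.0940 to 0.308), with title-number means (0.0556) and with summed counts of each number (0.0765). Cycs, cytochrome c itself, had 4.55 ± 0.496 CPM in WT and 3.55 ± 0.281 CPM in KO clones (SD, n = 6 and 5). Its genotypes did not overlap either, but its log2 fold change of -0.36 ± 0.12 did not pass in edgeR's test (adjusted p = 0.109). Cycs has many processed copies in the genome, the files tally reads that align to more than 1 place apart from the genes, and its level is therefore uncertain.

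Among 15 caspase substrates and factors of cell dismantling, 1 rose and 1 fell, beside the same 2.76% and 2.29% of all tested genes. Parp1, a DNA repair enzyme that effector caspases cleave, stood between 539.3 and 574.1 CPM in WT and between 453.1 and 491.2 CPM in KO clones. Its ranges were far apart, and its log2 fold change was -0.21 ± 0.03 (SE; edgeR adjusted p = 0.00377), below the threshold without any 1 clone (highest adjusted p = 0.0154). The call of Parp1 was lost without all clones of title number 1 or 4 (adjusted p = 0.0853 and 0.159) and with counts summed per title number (0.0576). Bid, which caspase-8 cuts to pass its signal to mitochondria, stood between 105.1 and 128.6 CPM in WT and between 129.1 and 137.6 CPM in KO clones. Its log2 fold change was 0.21 ± 0.05 (SE; edgeR adjusted p = 0.0394), and the call was lost without any 1 clone other than WT 1A (adjusted p from 0.0503 to 0.0919). It was also lost without all clones of any 1 title number (adjusted p from 0.0801 to 0.333), with summed counts of each number (0.0877), with title-number means (0.0783) and with no filter (0.0746).

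In 4 of the lists (inhibitors of apoptosis, death receptor, PIDDosome and inflammasome genes) edgeR called 0 of 29 tested genes, with 5 at an unadjusted p under 0.05. Over all tested genes these shares were 5.05% and 20.3%. DESeq2 called 2 higher and 5 lower of all 53 pathway genes, beside 5.38% and 5.22% of all tested genes. Of the inhibitors of apoptosis, Birc5 was the most abundant per kilobase and had a log2 fold change of -0.09 ± 0.07 (SE; adjusted p = 0.508). Of the death receptor genes Ripk3, a kinase of necroptosis, led at 0.07 ± 0.08 (adjusted p = 0.670), and of the PIDDosome pair Pidd1, its scaffold, at 0.03 ± 0.05 (adjusted p = 0.807). Of the inflammasome genes Gsdmd, the pore-forming substrate of caspase-1, led at -0.02 ± 0.07 (adjusted p = 0.889). Gsdmd lay between 37.70 and 47.52 CPM in every clone, including those without Casp1 reads.

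Pycard encodes ASC, the adaptor that joins inflammasome sensors to caspase-1. It had 154 reads (5.92 CPM) in WT 1A and between 51.60 and 68.29 CPM in the other 10 clones. WT 1A also had 1 read of Casp1 and 18 of Casp4, while WT 2E and 2F had at most 1 read of Casp1 with Pycard at 55.14 and 55.45 CPM.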

How the data were processed

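The authors deposited raw HTSeq counts per Ensembl gene, 1 set per clone, from reads that per the submitters' processing notes were aligned with STAR to mm9, without versions. Per the labels' protocols the libraries were polyA-selected and strand-specific, while the deposited counts are marked as unstranded, so reads of overlapping genes on opposite strands cannot be told apart. No annotation release is named in the labels or files. Symbols, exon lengths and gene order came from GENCODE M21 (GRCm38), which named 32860 of 37583 IDs, and promoters from RefSeq (GRCm38.p6). Reads in no gene made up 5.41% to 6.94% and stayed out of library sizes.

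KO and WT clones, grouped by the labelled genotype, were compared with edgeR 4.0.16 (robust quasi-likelihood, TMM, filterByExpr), adjusted by Benjamini-Hochberg over 11900 genes and called at an adjusted p under 0.05. SE is the fitted log2 difference divided by the root of the F statistic. Log2 CPM used a prior count of 2. DESeq2 1.42.0, limma-voom (limma 3.58.1), other scalings and filters and omissions of clones were alternatives. The tests were tried on simulated counts. No 2 libraries of a genotype agreed within sampling noise. The genes named were the 8, every called gene of the pathway lists, the most abundant gene per kilobase of each list with no call, Cflar, and the 3 genes outside the lists nearest to the most variable of the 8. Casp4, Cycs and Pycard were named after their values were seen. Some genes that this rule takes, with their values and any outlying clone, are left out, though the counts over lists hold them. The 8 genes and all lists were chosen with earlier results of these data known.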

Additional observations from a re-analysis of the deposited data

Results flagged for a closer look

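Of 52 groups of values (a gene or ratio within 1 genotype), 1 held a clone far from the others. That group was Pycard in WT. Pycard was named after its values were seen, so the count of flags cannot be set against a rate expected by chance. Pycard in WT 1A stood at 2.59 log2 CPM, against 5.71 to 5.90 in the rest of WT.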

How the results depend on the processing

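No paired analysis was possible because WT and KO clones share no replicate numbers. Genes called numbered 601, and 329 with no filter, 1261 in DESeq2, 942 with the late neutrophil score as covariate, 197 with counts summed per title number, 307 with title-number means, 1983 with the title number as a random effect in limma-voom (consensus correlation -0.215), 45, 296, 92 and 32 without title number 1, 2, 3 or 4, and 240 to 739 without 1 clone. Of the 8 genes, 0 were called lower, but 2 in DESeq2 and with the random effect, 1 without title number 2 and with the covariate, and 0 to 1 without 1 clone (1 without WT 2D and 1 without KO 4L). Of the pathway genes 1 was called higher, but 0 with no filter, without any title number, with summed counts and with title-number means, 2 in DESeq2, 5 with the random effect and 0 to 1 without 1 clone. Of them 3 were called lower, but 5 in DESeq2, 7 with the random effect, 1 without title number 1, 2 or 3 and with summed counts, 0 without title number 4, and 2 to 3 without 1 clone. Without 1 clone the log2 differences of the ratios ran from 0.0877 to 0.153 for Diablo to Xiap, from -0.162 to -0.109 for Casp9 to Xiap and from -0.227 to -0.136 for Casp8 to Cflar. Log2 fold changes that changed sign, none of them called, were those of Casp2 (-0.0112 without title number 2, -0.0284 with the covariate, and -0.0260 to 0.0565 without 1 clone), Casp8 (0.00328 without title number 4, and -0.0364 to 0.0306 without 1 clone) and Xiap (0.0170 without title number 1). Omitting clones or summing them leaves fewer samples; the cause of the other shifts was not tested. Depth limits what can be said of Casp1 and Casp4 in the clones with 0 reads.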
